A study of Arabidopsis thaliana with 45 samples.

Results

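The 100 genes described here were the ones whose transcripts stood furthest above Col-0 in the Arabidopsis leaf libraries labelled tcx5/6, at each of 4 ages. They were chosen by measured values. Group means of log2(value + 1) were taken, the Col-0 long-day mean was subtracted from the tcx5/6 mean at D13, D18, D23 and D30, each gene was ranked by the smallest of its 4 differences, and the first 100 of 37333 ranked genes were kept (the table holds 37336 genes, and 3 loci were left out by the rule). The study sequenced polyadenylated RNA from the first true leaves of Arabidopsis thaliana, in 15 groups of 3 libraries. The groups were labelled tcx5/6 in long days (LD, 16 h light then 8 h dark), Col-0 in short days (SD, 8 h light then 16 h dark) and Col-0 in long days. Each of these series was sampled at D13, D18, D23 and D30, and once more at D45 in tcx5/6 and at D40 in both Col-0 series. Col-0 is the wild-type accession and the stated background of all groups, D is the labelled day, and tcx5/6 is a line named for TCX5 and TCX6, CXC-domain proteins that act with the cell-cycle repressor complex called DREAM. The labels do not give the alleles of the line, and they do not say whether the replicates were separate plants or pools, so p-values refer to library-to-library spread, and that spread may be only technical.

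Genes looked up as a check of the labels did not all follow them. TCX5 (AT4G29000) ranged from 231 to 522 normalised reads in the 15 libraries labelled tcx5/6, from 54.1 to 216 in the 15 labelled Col-0 SD, and from 271 to 525 in the 15 labelled Col-0 LD. The tcx5/6 and Col-0 LD ranges thus overlapped, although with the lesion not given a transcript may remain in the line, and all 15 SD libraries lay below every Col-0 LD library. TCX6 (AT2G20110) had medians of 37.7 in tcx5/6, 392 in SD and 39.2 in Col-0 LD over all days. By day, the log2 difference of tcx5/6 from Col-0 LD was 2.02 at D13, -2.33 at D18, -1.25 at D23 and -0.89 at D30. In the oldest leaves TCX6 averaged 33.9 in tcx5/6 D45 and 267 in Col-0 LD D40. FT, the mobile flowering signal that long days induce, was at 0 in 13 of the 15 tcx5/6 LD libraries, in 4 of the 15 SD libraries and in 0 of the 15 Col-0 LD libraries. QQS, an orphan gene whose level is known to vary with its DNA methylation, ranged from 559 to 2401 in tcx5/6, was at 0 in all 15 SD libraries, and ranged from 252 to 1051 in Col-0 LD. Every group name here is a label, and each direction given for tcx5/6 or for short days is the direction of the libraries so labelled. The 4 leaf mesophyll markers were abundant in all the oldest leaves, with summed levels of 111090 to 258624 in tcx5/6 D45, 159094 to 165291 in SD D40 and 15568 to 80683 in Col-0 LD D40. In whole leaves, fewer cells of a type and less RNA per cell cannot be told apart.

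Depth was 16824317 to 40252818 reads in genes per library (median 25596039). Library 2 of tcx5/6 at D18 stood apart with 18702 genes detected and the lowest correlation with another library of its group (r = 0.909, over genes). Ranking without it, tried after the data had been seen, kept 95 of the 100 genes.

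Flavonoids are the branch of phenylpropanoid metabolism that gives leaves their UV-screening flavonols and their red anthocyanins. MYB11, MYB12 and MYB111 switch on the early flavonol steps, while PAP1 (MYB75) works with bHLH proteins such as TT8 to switch on the late anthocyanin steps. HY5, a bZIP factor that accumulates in light, binds G-box elements (CACGTG) and acts upstream of both branches and of the early light-induced proteins (ELIPs). Of 15 matched genes in a list of flavonoid and anthocyanin genes, 8 were among the 100: F3H, DFR, UF3GT, PAP1, MYB12, MYB111, TT8 and GSTF12. None of the other process and marker lists held a member. Those covered flowering, clock, cold, dark and sugar, starch, glucosinolate, DNA methylation, replication, mitosis, meiosis, immunity, senescence and photosynthesis genes, among others.

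The sequences shown are the 250 bases before the annotated start of the 4 flavonoid list members whose window holds a G-box, since HY5 was a member too. They are taken from the RefSeq annotation of TAIR10.1 and written 5′ to 3′ on the gene's strand, with the G-box in capitals. Which build the authors mapped to is not stated in the labels or notes used here.
F3H (chr3:19024942-19025191, plus strand): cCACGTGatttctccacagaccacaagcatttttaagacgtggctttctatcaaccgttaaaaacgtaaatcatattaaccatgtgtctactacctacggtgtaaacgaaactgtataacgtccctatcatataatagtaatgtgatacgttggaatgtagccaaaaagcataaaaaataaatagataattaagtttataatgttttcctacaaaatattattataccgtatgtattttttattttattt
DFR (chr5:17166033-17166282, minus strand): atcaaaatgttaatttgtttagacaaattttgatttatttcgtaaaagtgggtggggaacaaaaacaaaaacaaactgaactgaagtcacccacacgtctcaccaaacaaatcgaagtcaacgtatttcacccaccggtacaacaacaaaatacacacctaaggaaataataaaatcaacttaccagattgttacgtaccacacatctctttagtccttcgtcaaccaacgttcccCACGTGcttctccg
UF3GT (chr5:21938397-21938646, minus strand): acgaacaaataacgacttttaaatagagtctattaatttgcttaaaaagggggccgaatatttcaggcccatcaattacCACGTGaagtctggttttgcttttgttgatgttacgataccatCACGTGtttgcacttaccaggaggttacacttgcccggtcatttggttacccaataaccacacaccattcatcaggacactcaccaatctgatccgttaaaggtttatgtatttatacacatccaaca
MYB12 (chr2:19476076-19476325, plus strand): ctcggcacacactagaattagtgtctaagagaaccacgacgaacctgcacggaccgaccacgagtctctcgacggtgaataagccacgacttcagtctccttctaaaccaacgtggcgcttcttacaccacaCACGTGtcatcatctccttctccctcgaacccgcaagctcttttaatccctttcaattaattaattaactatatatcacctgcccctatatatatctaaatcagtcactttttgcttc
F3H, DFR and MYB12 each hold 1 G-box there and UF3GT holds 2. In windows of 250 bases before to 50 after the start, searched on both strands, a G-box stood in 14 of the 100 members and in 8.16% of all promoters of genes tested. The shorter ACGTG, the core of abscisic acid response elements and contained in every G-box, stood in 44 members against 26.7% of all promoters. TTGAC, the W-box core, stood in 40 members against 50.6%, and TTTGAA, the cell-cycle element called CHR, in 35 against 43.3%. The evening element AAAATATCT stood in 3 members against 2.88%, the CCA1 site AAAAATCT in 5 against 7.72%, the cold element core CCGAC in 16 against 15.9%, the telobox AAACCCTA in 6 against 5.59%, TATAAA in 56 against 49.5%, and the E2F site (TTCCCGCC or TTTCCCGC) in 1 against 1.1996%. These matches are descriptions of letters in a window.

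The members differed by at least 1.87 on the log2 scale at every one of the 4 days, because the rule asked for it. The median member stood 3.49 higher in tcx5/6 than in Col-0 LD at D13, 4.36 at D18, 2.83 at D23 and 3.42 at D30, while the medians over all genes tested were 0, -0.08, -0.06 and -0.02. The smallest difference fell at D23 for 46 members, at D30 for 29, at D13 for 19 and at D18 for 6. In the individual libraries, all tcx5/6 values lay above all Col-0 LD values for 97 members at D13 (30.1% of genes tested did so), 96 at D18 (21.6%), 95 at D23 (21.3%) and 90 at D30 (23.4%), and for 81 members at all 4 days (6.88%). These counts restate the choice and carry no test. Many members were close to silent in Col-0 LD, where 10 of them at D13, 15 at D18, 7 at D23 and 9 at D30 were at 0 in all 3 libraries.

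**Figure D1:**
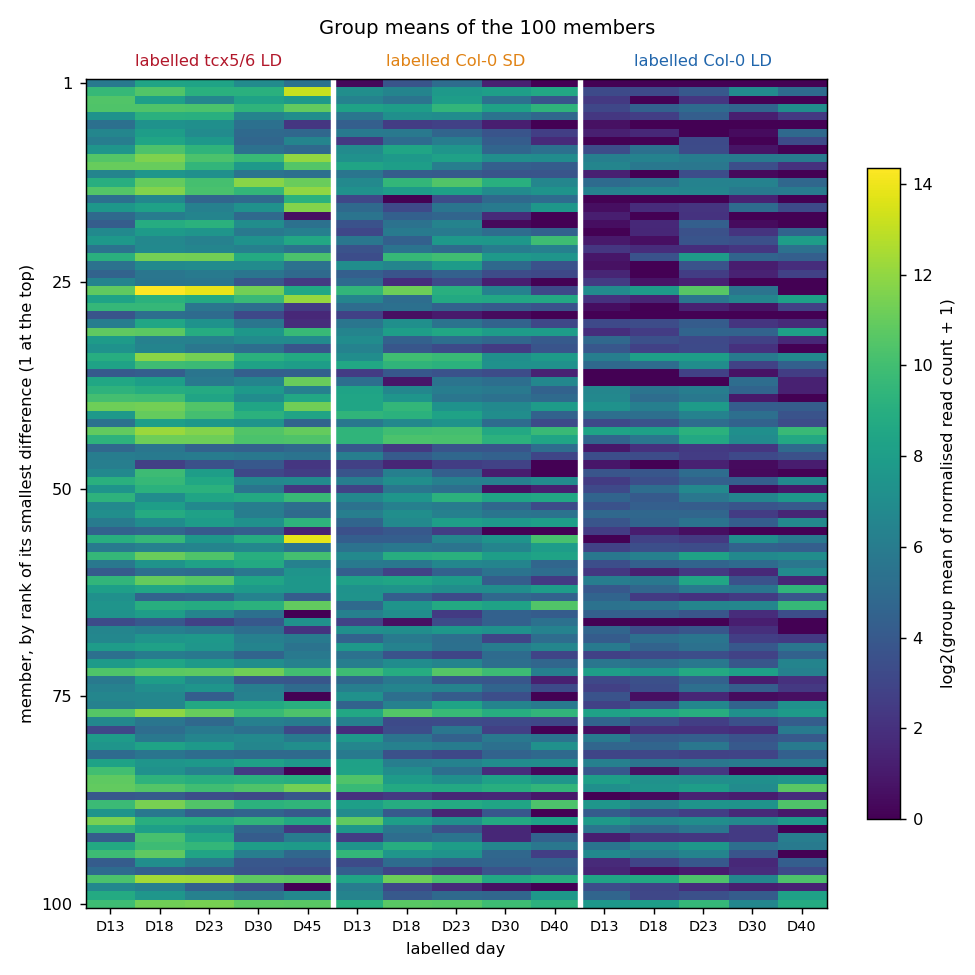
Group means of the 100 members as log2(mean normalised read count + 1), one row per gene in rank order, with the days of the libraries labelled tcx5/6 LD, Col-0 SD and Col-0 LD from left to right. The tcx5/6 columns D13 to D30 are brighter than the matching Col-0 LD columns in every row because the rule chose such genes; the SD columns, which the rule did not use, mostly lie between them.

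The gene with the largest smallest difference was AT3G24750, an uncharacterised protein. Its 12 tcx5/6 libraries from D13 to D30 ran from 32.9 through a median of 205 to 492 normalised reads, those labelled SD from 0 through 4.1 to 38.4, and all 12 Col-0 LD libraries were at 0. GSTF12 (TT19), the glutathione transferase that anthocyanins need to reach the vacuole, came second with 82.5, 799 and 1876 in tcx5/6 (lowest, median, highest), 57.5, 169 and 281 in SD, and 0, 9.56 and 342 in Col-0 LD. Its tcx5/6 and Col-0 LD libraries overlapped at D30, where the tcx5/6 values were 875, 82.5 and 722 and the Col-0 LD values 342, 0 and 3. Next came AT2G16367, a transcribed pseudogene, with 18.2, 301 and 1596 in tcx5/6 against 0, 0 and 10.6 in Col-0 LD. CSLG3, a cellulose synthase-like protein, followed with 431, 1200 and 1743 in tcx5/6, 209, 314 and 773 in SD and 2.53, 22.5 and 39.2 in Col-0 LD, with no overlap between any pair of tcx5/6 and Col-0 LD libraries. The rest of the leading 15 were AT4G34550 (an F-box protein), MYB11, AT5G17780 (an alpha/beta-hydrolase), BBX30, AT3G44970 (a cytochrome P450), F3H, CHIL, SRS4, AT3G28270 (a putative transmembrane protein), the noncoding gene AT3G51238 and TT8.

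Among the 5 flavonoid regulators, the highest median in Col-0 LD was that of PAP1, at 10.6 normalised reads. MYB11 ran from 18.2 through 80.9 to 213 in the 12 tcx5/6 libraries of D13 to D30, from 0 through 4.86 to 28.1 in SD, and from 0 through 0 to 1.66 in Col-0 LD. MYB111 had 0, 69.3 and 196 in tcx5/6, 5.01, 23.6 and 167 in SD, and 0, 1.14 and 21.6 in Col-0 LD. At D13 it had 84.4, 117 and 81.2 in tcx5/6, all below the 137, 167 and 163 in SD, and its highest Col-0 LD value of 21.6 fell at the same day. MYB12 was weakly expressed throughout, with 5.47, 21.1 and 40.4 in tcx5/6 against 0, 0.642 and 10.1 in Col-0 LD. TT8 had 3.38, 42.3 and 162 in tcx5/6, 0, 8.37 and 40.1 in SD, and 0, 0 and 4.78 in Col-0 LD. PAP1 was the most abundant of the 5 regulators in tcx5/6, with 282, 508 and 1274, against 23.2, 235 and 436 in SD and 0, 10.6 and 243 in Col-0 LD. Its value of 243 came from library 1 of Col-0 LD at D30, beside 22 and 11 in the other libraries of that group.

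That Col-0 LD library at D30 was also the high one for the late anthocyanin enzymes. DFR, dihydroflavonol reductase, had 1067, 23.8 and 318 in tcx5/6 at D30, against 369, 23.8 and 8.99 in Col-0 LD, so the groups overlapped at that day. At D13 the same gene had 461, 440 and 654 in tcx5/6, 10.9, 11.9 and 32.3 in SD, and 0 in all 3 Col-0 LD libraries. UF3GT, a glycosyltransferase of anthocyanins, ran from 11 through 188 to 340 in tcx5/6, from 3.18 through 36.2 to 66.1 in SD and from 0 through 1.14 to 92.7 in Col-0 LD. AT5MAT, the anthocyanin malonyltransferase, ran from 0.699 through 165 to 445 in tcx5/6, from 0 through 37.6 to 49.1 in SD and from 0 through 0 to 104 in Col-0 LD. F3H, flavanone 3-hydroxylase of the early steps, showed no such overlap of tcx5/6 with either Col-0 series. It had 568, 1447 and 3320 in tcx5/6, 114, 184 and 336 in SD, and 23.8, 72 and 125 in Col-0 LD. CHIL, a chalcone isomerase-like protein that promotes flavonoid flux, had 157, 1240 and 2467 in tcx5/6 and 0, 46.6 and 112 in Col-0 LD. 4CL3, the coumarate ligase feeding this branch, had 69.9, 642 and 1300 in tcx5/6 and 0.916, 49.6 and 122 in Col-0 LD. UGT84A2, which makes sinapoyl glucose, was a member too, as were the acyltransferase-like SCPL9 and scpl10, whose genes start 6.59 kb apart. The 7 list genes that were not members included TT5, chalcone isomerase, at differences of 3.70, 2.36, 1.57 and -0.0027 from D13 to D30, and MYB90, the close relative of PAP1, at 1.04, 0, 0 and -2.14. UGT78D1 (2.89, 3.49, 1.03 and 1.80) and UGT78D2 (2.95, 3.06, 1.55 and 1.94) were higher at all 4 days. TT7 was lower at D30 (-0.69), and GL3 and EGL3 were lower at D23 (-0.36 and -0.28).

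**Figure D2:**
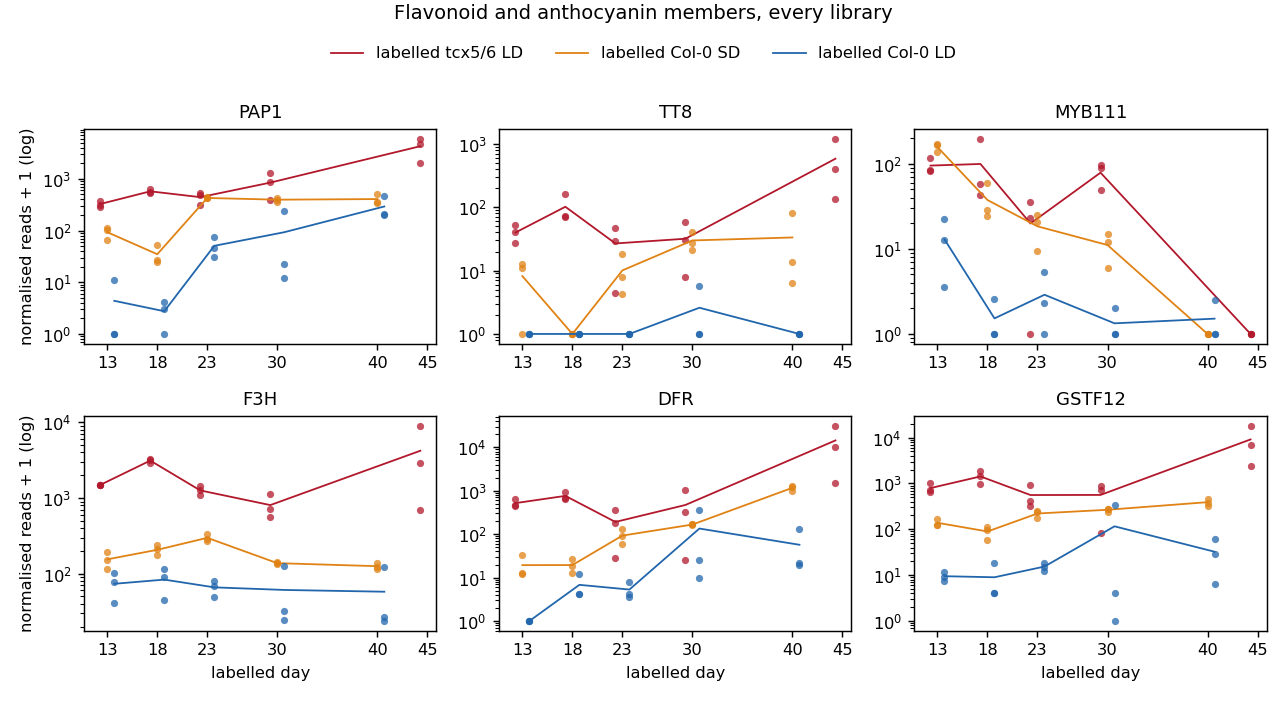
Normalised read count plus 1 on a log axis against labelled day for 6 flavonoid members, with 1 point per library and lines through group means, in libraries labelled tcx5/6 LD, Col-0 SD and Col-0 LD. TT8, DFR and GSTF12 reach their highest values in the D45 libraries, while MYB111 is at 0 in all 3 of them; at D30 single libraries of DFR and GSTF12 overlap between tcx5/6 and Col-0 LD.

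The light-response members included HY5, its homologue HYH, the B-box proteins BBX18, BBX30 and BBX31, and ELIP1 and ELIP2, chlorophyll-binding proteins made under light stress. HY5 had 183, 260 and 474 (lowest, median and highest) in tcx5/6 over D13 to D30, 97.4, 150 and 207 in SD, and 9.99, 31.5 and 88.3 in Col-0 LD, and at each day its 3 series did not overlap. HYH had 51, 462 and 806 in tcx5/6, 45, 79.9 and 169 in SD, and 0, 12.5 and 36 in Col-0 LD. ELIP1 had the largest single difference of any member, 9.79 at D13, where its values were 1822, 1771 and 1938 in tcx5/6, 100.8, 67.5 and 101.2 in SD, and 0, 0 and 8.1 in Col-0 LD. By D30 that difference was 2.99, with 282, 207 and 99.7 in tcx5/6 and 31.5, 16.5 and 20 in Col-0 LD. ELIP2 followed the same course, from 793, 586 and 854 in tcx5/6 against 0, 0 and 1.35 in Col-0 LD at D13 to 23.2, 82.5 and 0 against 0, 0 and 2 at D30, where the groups overlapped. BBX30 ran from 9.79 through 118 to 450 in tcx5/6, from 0 through 27.1 to 88.2 in SD and from 0 through 0 to 11.8 in Col-0 LD. BBX31 ran from 8.86 through 151 to 288 in tcx5/6 and from 0 through 0 to 20.6 in Col-0 LD. The median difference of these 7 genes was 6.80 at D13, 6.87 at D18, 4.29 at D23 and 2.99 at D30. These 7 and the other role groups were put together after the members were seen, so they are descriptions.

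**Figure D3:**
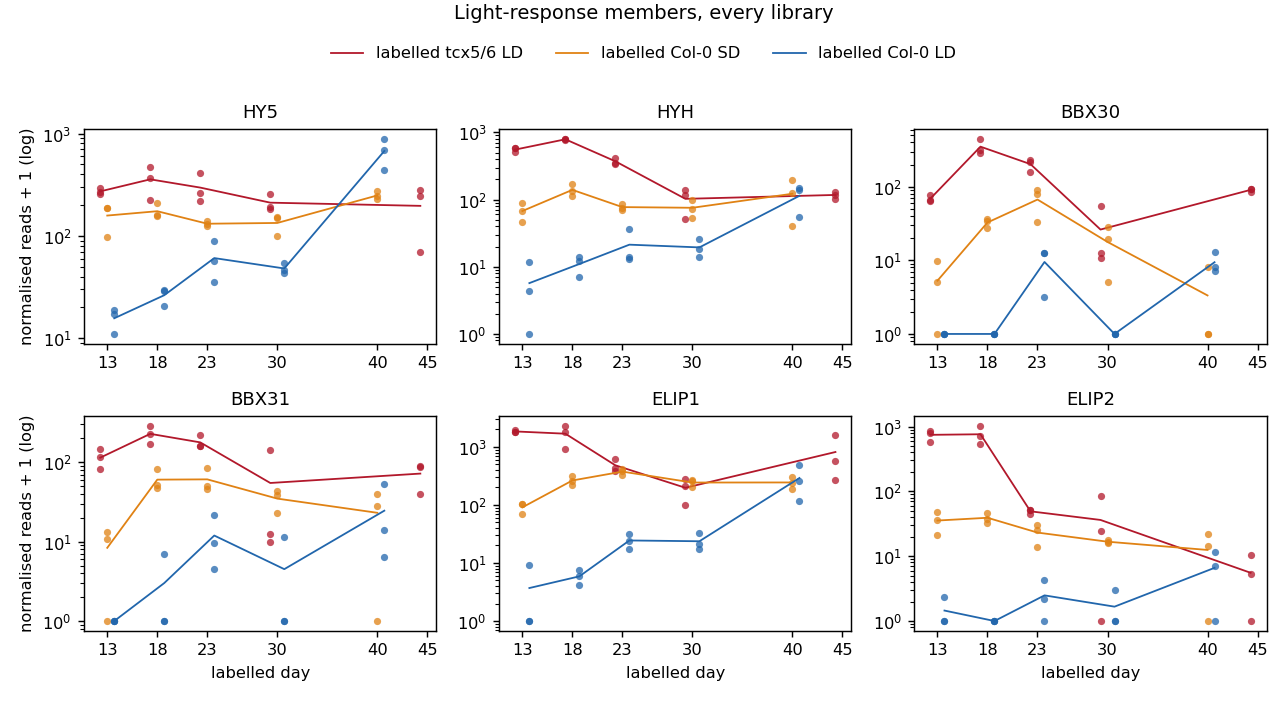
Normalised read count plus 1 on a log axis against labelled day for 6 light-response members, with 1 point per library and lines through group means, in libraries labelled tcx5/6 LD, Col-0 SD and Col-0 LD. At D13 and D18 every tcx5/6 point lies above every Col-0 LD point; in the oldest leaves the Col-0 LD points of HY5 lie above its tcx5/6 points.

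Other members belonged to the cell wall, to hormone and growth control and to the nucleus. XTH31, a xyloglucan-modifying enzyme, had the highest mean of any member at D18, with 21506, 19191 and 22498 normalised reads in tcx5/6 at D18, and ran from 841 through 8853 to 22498 in tcx5/6, from 68.4 through 605 to 2438 in SD and from 22 through 165 to 1724 in Col-0 LD over D13 to D30. TBL26, of a family that acetylates wall polymers, ran from 204 through 1035 to 2260 in tcx5/6 and from 22 through 43.4 to 84.3 in Col-0 LD. ATGA2OX1, which inactivates gibberellins, ran from 7.21 through 284 to 642 in tcx5/6 and from 0 through 1.11 to 28.5 in Col-0 LD. CYP707A2, which breaks down abscisic acid, had 677, 572 and 625 in tcx5/6 at D13 but only 176, 10 and 193 at D18, the low value being in the library that stood apart. GRF4, a growth-regulating factor, had 665, 648 and 626 in tcx5/6, 155, 219 and 208 in SD and 59.5, 40 and 48.6 in Col-0 LD at D13, and 14.5, 15.4 and 48.8, 0, 6.05 and 0, and 0.956, 4.58 and 7.99 in the same 3 series at D30. HDA3, a plant-specific histone deacetylase of the nucleolus, had 2568, 2702 and 2927 in tcx5/6, 1783, 1758 and 2035 in SD, and 236, 208 and 246 in Col-0 LD at D13. Its D18 values were 527, 556 and 478 in tcx5/6, 270, 256 and 275 in SD, and 82.7, 129 and 95.5 in Col-0 LD, so all 3 series were lower at D18 and kept their order.

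Clock genes differed widely between the labels at the younger days in both directions, and none was a member. The 18 tested genes of the clock list had median differences between tcx5/6 and Col-0 LD of 0.04, 0.13, -0.01 and -0.25 from D13 to D30. CCA1, the morning clock factor, had 2352, 2518 and 2922 in tcx5/6 against 117, 71.6 and 104 in Col-0 LD at D13, and 4257, 5510 and 4540 against 162, 198 and 290 at D18. At D30 it had 215, 287 and 245 in tcx5/6 against 660, 460 and 618 in Col-0 LD. TOC1, the evening factor, had 412, 411 and 435 in tcx5/6 against 5780, 4866 and 4662 in Col-0 LD at D13, and 6256, 4751 and 6716 against 4149, 4913 and 4583 at D30. LNK1, a clock cofactor, had 3470, 3650 and 3594 in tcx5/6 against 570, 613 and 625 in Col-0 LD at D13, and was higher at all 4 days by 2.57, 2.69, 0.88 and 1.95. PRR7 differed by 0.14, 0.31, 0.38 and 0.12 and ZTL by -0.05, 0.04, 0.06 and -0.26. CCA1 was thus high in tcx5/6 at D13 and low at D30, LNK1 was high at each day, and TOC1 was low at D13 and overlapped Col-0 LD at D30. In SD, CCA1 had 120, 90 and 84.4 at D13, within or near the Col-0 LD values, but 1023, 1074 and 1048 at D18 against 162, 198 and 290 in Col-0 LD, and 1254, 1199 and 1303 at D23 against 547, 608 and 646. LNK1 had 1279, 1112 and 1087 in SD at D13, above all 3 Col-0 LD libraries. The dark and sugar starvation list, with 17 genes tested, stood lower in tcx5/6 at all 4 days, with median differences of -2.62, -4.09, -1.78 and -3.15. Not every gene of that list is known to rise in darkness. The labels used here give no hour of harvest, and the part of the clock or of the dark genes in the members' differences was not tested.

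**Figure D4:**
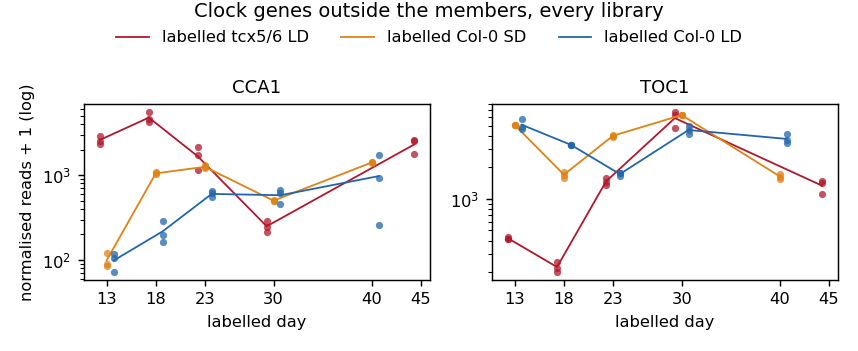
Normalised read count plus 1 on a log axis against labelled day for CCA1 and TOC1, 1 point per library with lines through group means, in libraries labelled tcx5/6 LD, Col-0 SD and Col-0 LD. At D13 and D18 the tcx5/6 points lie above the Col-0 LD points for CCA1 and below them for TOC1; at D30 they lie below for CCA1.

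The libraries labelled Col-0 SD played no part in the choice, but they are set here against the Col-0 LD libraries that did, so their differences are given without a test. The SD mean lay above the Col-0 LD mean for 98 members at D13, 96 at D18, 85 at D23 and 95 at D30, and for 78 at all 4 days. The share of all genes was not counted for any order of means given here. Low Col-0 LD values at these days also helped a gene to be chosen. The median SD minus Col-0 LD difference of the members was 2.38, 2.32, 1.68 and 1.98 from D13 to D30. Over all genes tested it was 0.04, 0.01, 0 and 0.05. Every SD library lay above every Col-0 LD library for 81 members at D13 (32% of genes tested), 74 at D18 (24.6%), 66 at D23 (31.6%) and 68 at D30 (33.3%), and for 38 at all 4 days (7.67%). The opposite, every SD library below every Col-0 LD library, held for 5 members at D23 (32.4% of genes tested) and for 0 at D13 (28%), D18 (23.9%) and D30 (27.3%). The SD mean fell between the other 2 means for 82, 94, 74 and 81 members from D13 to D30. On the log2 scale the median member stood 0.640 of the way from Col-0 LD to tcx5/6 at D13, 0.530 at D18, 0.517 at D23 and 0.640 at D30. The SD mean was above the tcx5/6 mean for 16, 2, 11 and 14 members, among them MYB111 at D13. For 31 members every tcx5/6 library lay above every SD library at all 4 days. The rule chose members for high tcx5/6 values at these days, and the share of all genes was not counted. Averaged over the 100 members, log2(value + 1) was 7.48, 8.16, 7.58 and 6.58 in tcx5/6 from D13 to D30, 5.98, 5.95, 6.04 and 5.17 in SD, and 3.48, 3.41, 4.33 and 3.03 in Col-0 LD, with SDs between libraries of 0.02 to 0.48.

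The oldest leaves gave a comparison the rule did not touch, tcx5/6 at D45 against Col-0 LD at D40, in which day and genotype label cannot be told apart. With limma on log2(value + 1) across all 15 groups and Benjamini-Hochberg adjustment over 23493 genes, 60 members rose, 4 fell and 36 were not called at an adjusted p under 0.05. Over all genes tested, 25% rose and 26.5% fell. All 100 members had passed the filter on low values (at least 10 in at least 3 libraries), which the groups that chose them could satisfy. Every tcx5/6 library lay above every Col-0 LD library for 60 members, against 23% of genes tested. The median member difference was 2.01, against 0 over all genes. With these groups fitted alone 1 member fell (14.4% of all genes), and without library 3 of tcx5/6 D45 2 fell (23.2%). The 2 groups also differed in leaf state: 12 of 14 tested senescence genes fell and 0 rose, 15 of 15 photosynthesis genes rose, and the summed senescence level was 18582 to 51230 in tcx5/6 against 292529 to 659889 in Col-0 LD. The part of that state in the members' changes was not tested.

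Late anthocyanin genes were among the members that rose most there. AT5MAT had 4671, 1556 and 322 normalised reads in tcx5/6 D45 and 4.62, 0 and 0 in Col-0 LD D40, a log2 difference of 9.55 ± 1.31 (SE, limma adjusted p = 1.57e-07). DFR had 31517, 10267 and 1540 in tcx5/6 D45 against 129, 18.7 and 20.2 in Col-0 LD D40, a difference of 7.71 ± 1.06. TT8 had 1209, 402 and 136 against 0 in all 3 Col-0 LD libraries, which makes it at least 143-fold higher against a floor of 3 reads per library, or at least 66.2-fold without library 1 of tcx5/6. UF3GT had 7636, 2157 and 346 against 6.15, 18.7 and 0 (8.43 ± 1.24), and GSTF12 18113, 6812 and 2353 against 61.5, 5.34 and 27.4 (8.21 ± 1.09). For each of these genes the 3 tcx5/6 libraries were in the same order and spread widely, yet none overlapped the Col-0 LD libraries. Without library 1 of tcx5/6 D45 the differences of AT5MAT, DFR, UF3GT and GSTF12 were 8.64, 6.71, 7.38 and 7.48, and without library 3 they were 10.57, 8.89, 9.61 and 8.95. Without library 1 of Col-0 LD D40 AT5MAT, DFR and GSTF12 differed by 10.38, 8.60 and 8.95; without library 2 UF3GT and GSTF12 differed by 9.38 and 7.30, and without library 3 UF3GT differed by 7.24. PAP1 rose with 5996, 4804 and 2049 against 208, 467 and 199. Of the 15 flavonoid list genes, 11 rose and 0 fell (25% and 26.5% of all genes tested), including the non-members TT7 (5.98 ± 0.85) and UGT78D2 (3.94 ± 0.48). The flavonol factors did not share this: MYB111 was at 0 in all 3 tcx5/6 libraries and had 1.54, 0 and 0 in Col-0 LD, and MYB12 had 4.64, 0 and 0 against 0 in all 3. MYB11 was called at a mean of 3.76 in tcx5/6 against 0 in all 3 Col-0 LD libraries, where a floor of 3 reads averages 4.06, so no fold is given. The call was lost without library 2 of tcx5/6 D45 (limma adjusted p = 0.13) or library 1 of Col-0 LD D40 (0.0501).

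Of the 7 light-response members 2 rose, 1 fell and 4 were not called in the same comparison. Over all genes tested, 25% rose and 26.5% fell, so these counts do not set the group apart. HY5 fell, with 277, 242 and 67.9 in tcx5/6 D45 against 891, 697 and 435 in Col-0 LD D40 (-1.96 ± 0.38, adjusted p = 5.19e-05), so every tcx5/6 library lay below every Col-0 LD library, the reverse of the younger days. Without library 3 of tcx5/6 D45 its difference was -1.32. BBX18 rose to 1162, 959 and 1040 against 86.2, 194 and 108, and BBX30 to 92.7, 93.4 and 83.2 against 6.15, 12 and 7.14. HYH had 102, 117 and 129 against 148, 54.7 and 136 and was not called (0.16 ± 0.57, adjusted p = 0.854); ELIP1 had 1609, 569 and 267 against 495, 259 and 115 (1.34 ± 0.58, adjusted p = 0.0501). Besides HY5 the members that fell were AT2G22590, a UDP-glycosyltransferase (-3.66 ± 1.03), MYB13 (-1.47 ± 0.57) and CSLB03 (-0.97 ± 0.25). With the 2 groups fitted alone the calls of AT2G22590, HY5 and CSLB03 were lost (limma adjusted p = 0.0704, 0.0768 and 0.0913). The AT2G22590 call was also lost without library 3 of tcx5/6 D45 (0.0546). The MYB13 call was lost when library 1 or 2 of Col-0 LD D40, or library 2 or 3 of tcx5/6 D45, was left out (adjusted p = 0.0544 to 0.105). Of the 4 cell wall members 3 rose, and all 6 hormone and growth members rose. Among the latter was ATGA2OX1 at 34, 51.2 and 35 against 0 in all 3 Col-0 LD libraries (at least 9.86-fold higher). The CYP707A2 call was lost without library 1 of Col-0 LD D40 (limma adjusted p = 0.0625). GRF4 lost its call with log2(value + 10) and with the 2 groups fitted alone (limma adjusted p = 0.247 and 0.053). XTH31 had 179, 332 and 607 in tcx5/6 D45 against 0 in all 3, at least 91.7-fold higher.

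**Figure D5:**
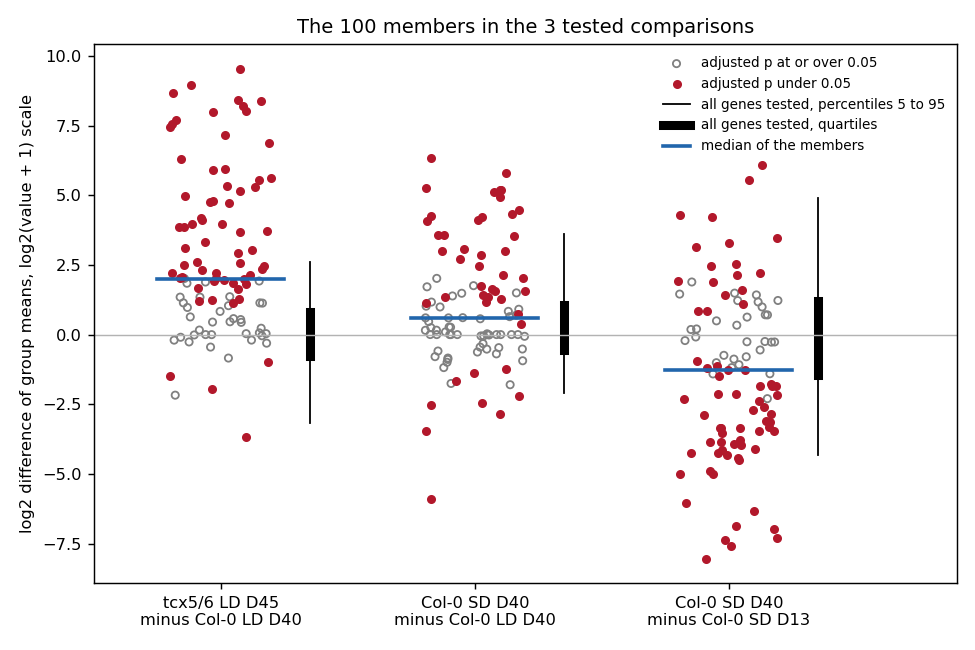
Log2 differences of the 100 members in the 3 tested comparisons, 1 point per gene, filled where the limma adjusted p was under 0.05, with the members' median as a horizontal line and the percentiles of all 23493 genes tested as a vertical bar. The members' medians are 2.01, 0.60 and -1.27 from left to right.

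Between the D40 groups labelled Col-0 SD and Col-0 LD, which share the Col-0 LD D40 libraries with the comparison just given, 36 members rose in SD, 9 fell and 55 were not called, against 29.1% of all genes that rose and 21.2% that fell. The median member difference was 0.60, against 0.07 over all genes. The count rested on the settings. With the 2 groups fitted alone 22 members rose and 4 fell (15.7% and 9.31% of all genes). With quantile normalisation 25 rose and 16 fell (22% and 29.8% of all genes), and the median of all genes shifted by -0.22. Late anthocyanin genes were again high. AT5MAT had 123, 85.5 and 92 in SD against 4.62, 0 and 0 in Col-0 LD (5.81 ± 1.31, adjusted p = 0.000331), UF3GT 149, 189 and 246 against 6.15, 18.7 and 0 (5.20 ± 1.24), and DFR 1199, 1304 and 1006 against 129, 18.7 and 20.2 (4.94 ± 1.06). AT4G17760, annotated with a PCNA domain, had 60.4, 78.5 and 107 in SD against 0 in all 3 Col-0 LD libraries, at least 20.2-fold higher. scpl10 had 235, 219 and 240 against 50.8, 1.33 and 1.19 (5.17 ± 0.76). Without library 1 of Col-0 LD D40 AT5MAT, DFR and scpl10 differed by 6.64, 5.83 and 6.68; without library 2 UF3GT and scpl10 differed by 6.16 and 4.44, and without library 3 by 4.01 and 4.40. PAP1, in contrast, had 519, 360 and 337 in SD against 208, 467 and 199 and was not called (0.57 ± 0.73, adjusted p = 0.548). F3H had 137, 123 and 114 against 122, 22.7 and 26.2; its call (1.55 ± 0.57, adjusted p = 0.0233) was lost without library 2 or 3 of Col-0 LD D40 (adjusted p = 0.142 and 0.112) or library 1 of SD D40 (0.0602). Among those that fell, HY5 had 242, 226 and 274 in SD against 891, 697 and 435 (-1.39 ± 0.38, adjusted p = 0.00271), AT2G22590 was listed at 0 in all 3 SD libraries against 53.8, 73.4 and 52.4, and UGT84A2 had 918, 589 and 597 against 1885, 1447 and 1543 (-1.23 ± 0.43). BBX30 had 0, 7.01 and 0 in SD against 6.15, 12 and 7.14 (-2.19 ± 0.73, adjusted p = 0.0122), both groups near the floor; it was -3.19 without library 2 of SD D40, and its call was lost without library 1 or 3 of SD D40 or library 2 of Col-0 LD D40 (adjusted p = 0.0514 to 0.0833). The UGT84A2 call was lost without library 1 of Col-0 LD D40, or library 2 or 3 of SD D40 (0.0542 to 0.0568). Photosynthesis genes rose in SD (14 of 15), and 2 of 14 senescence genes rose and 6 fell.

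Within the libraries labelled SD, none of which the rule used, more members fell than rose with age. This comparison shares the SD D40 libraries with the one before it. From D13 to D40, 51 fell, 18 rose and 31 were not called, against 36.5% and 34% of all genes, and the median difference was -1.27 against -0.06. Step by step, 24 rose and 24 fell between D13 and D18 (16.8% and 14.5% of all genes), 11 and 12 between D18 and D23 (13.1% and 16.7%), 4 and 27 between D23 and D30 (14.9% and 10.6%), and 9 and 24 between D30 and D40 (17.9% and 20.4%). A flavonol factor and a growth gene were among those that fell. MYB111 was listed at 0 in all 3 libraries at D40, against 137, 167 and 163 at D13, and GRF4 at 0 against 155, 219 and 208. BGLU6, named for the beta-glucosidase family, had 9.29, 7.01 and 0 at D40 against 653, 774 and 751 at D13 (-7.38 ± 0.51, limma adjusted p = 7.18e-15). Its difference was -8.00 and -6.32 without library 1 or 3 of SD D40. AT5G62210, annotated as embryo-specific protein 3, had 0, 0 and 0.677 at D40 against 281, 320 and 342 at D13 (-8.05 ± 0.60), the lowest difference of any member. Of the 7 nuclear and RNA members 5 fell and 0 rose, with HDA3 at 256, 383 and 231 against 1783, 1758 and 2035 and the cyclophilin ROC2 at 137, 198 and 225 against 1327, 1389 and 1316. Of the 6 hormone and growth members 5 fell and CYP707A2 rose (1.93 ± 0.68). Genes with exactly 1 read were scarce in these D40 libraries, 41 to 48 in each, against 528 to 752 in Col-0 LD D40 and 83 to 172 in SD D13, although 2 of them are the deepest of all libraries. They were also scarce in tcx5/6, with 27 to 140 at D18 and 69 to 151 at D23, so a 0 in any of these libraries may stand for a low count.

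The members that rose with age in SD included DFR, PAP1 and a vacuolar protease. DFR had 1199, 1304 and 1006 at D40 against 10.9, 11.9 and 32.3 at D13 (6.08 ± 1.06, adjusted p = 4.45e-06). BETA-VPE, a vacuolar processing protease, had 1285, 1655 and 1287 against 42.2, 21.1 and 27.9 (5.53 ± 0.42), and UMAMIT36, a transporter of the amino acid exporter family, 896, 996 and 984 against 39.5, 78 and 34.5 (4.31 ± 0.88). PAP1 rose as well, with 519, 360 and 337 against 65.4, 109 and 102 (2.13 ± 0.73). UF3GT rose by 3.30 ± 1.24 (adjusted p = 0.0183), a call lost without library 1 of SD D13 or library 3 of SD D40 (differences of 2.50 and 3.11, adjusted p = 0.108 and 0.0503), and by 4.19 without library 2 of SD D13. CHIL and 4CL3 fell, CHIL with 23.2, 14 and 13.5 against 328, 357 and 315 and 4CL3 with 65, 4.21 and 21.7 against 318, 349 and 395, while F3H (-0.27 ± 0.57) and GSTF12 (1.49 ± 1.09) were not called. Of the 15 flavonoid list genes 4 rose and 5 fell, near the 34% and 36.5% of all genes tested. In the same comparison 14 of 14 senescence genes rose and 14 of 15 photosynthesis genes fell.

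All 100 members matched the RefSeq annotation, 45 with a symbol, against 39.0% of genes tested. They comprised 90 protein-coding genes, 6 long noncoding RNAs, 2 transcribed pseudogenes and 2 small nucleolar RNAs. Chromosomes 1 to 5 held 25, 15, 29, 12 and 19 of them, where 26.6, 15.6, 20.0, 15.1 and 22.8% of genes tested lie. In 5 pairs both genes start within 10 kb of each other. One pair is F3H and AT3G51238, which overlap on opposite strands over 93.8% of the exon length of F3H. Their values were nearly the same, 9037, 2922 and 692 for F3H and 8556, 2864 and 694 for AT3G51238 in tcx5/6 D45. Across the libraries, 46.0 to 48.2% of reads lay in no gene and 0.11 to 0.24% were ambiguous. How much of the AT3G51238 values came from F3H reads was not tested. The kit did not mark strand, so reads from F3H and its antisense partner cannot be told apart. The same holds for AT3G62615, 96.5% of which lies under MYB11. In all, 8 members have at least 50% of their exon length under a gene on the other strand (7.47% of genes tested), and 4 have at least 90% (4.32%).

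The edge of the list was not a gap. The genes ranked 96 to 100 were AT2G05765, SQP1, AT1G44740, MYB13 and SDR1, with smallest differences of 1.87 to 1.89, and the next 5 genes outside it were AT3G12970, AT2G29165, AT5G38890, AT2G14660 and AT1G09500, with 1.85 to 1.87.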

How the data were processed

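The deposited table holds 37336 genes and 5 summary rows for 45 libraries in 15 groups of 3. Its values are a size-factor-normalised signal that the authors deposited; per the submitters' processing notes, the tools were DESeq2 1.40.1, HTSeq 2.0, STAR 2.7.1a, Trim Galore 0.6.6 and cutadapt. No build is named in these notes or in the labels. Per the labels' protocols, poly-A libraries were non-stranded. Every value was a whole multiple of its library's smallest step (100% within 0.01 reads), so reads could be recovered. Tests with edgeR 4.0.16 and DESeq2 1.42.0 on those reads were alternatives. In the oldest leaves edgeR called 60 members higher and 4 lower, against 25.4% and 25.2% of all genes. The deposited summary rows were left out.

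Values were tested as log2(value + 1) with limma 3.58.1 (R 4.3.3), over all 45 libraries with 15 group means and a mean-variance trend, for 23493 genes with at least 10 in at least 3 libraries. Fold changes on this scale understate the change of low genes. Calls needed a Benjamini-Hochberg adjusted p under 0.05. Sums, ranks and figures used Python 3.11.15, numpy 2.4.6, pandas 2.3.3 and matplotlib 3.10.9. The test was also run on simulated data that gave each gene the same spread in every group. That run therefore cannot show how the calls hold where group spreads differ. Contrasts among the libraries that chose the members were described without a test. The members and gene lists were chosen with earlier results of these data known. Genes named by rule were the 15 leading members, members in a list, the last 5 members and the next 5 genes, the 3 called highest and 3 lowest with a symbol in each tested comparison, and TCX5, TCX6, FT and QQS. Other genes, including those of the role groups, were chosen after their values were seen. Floors of 3 reads cover counting error only. Alternatives were other scalings, pseudocounts, filters and tools, the compared groups alone, a replicate block and leaving out each library.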

Additional observations from a re-analysis of the deposited data

How the results depend on the processing

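With the 2 compared groups fitted alone, the oldest leaves gave 45 members higher and 1 lower (main 60 and 4). Over all genes tested, 10.8% were then higher and 14.4% lower (main 25% and 26.5%). The D40 comparison of SD with Col-0 LD gave 22 higher and 4 lower (main 36 and 9), against 15.7% and 9.31% of all genes (main 29.1% and 21.2%). Fewer libraries then estimate the spread. Quantile normalisation gave 25 higher and 16 lower in the D40 comparison (22% and 29.8% of all genes), and the cause was not tested. It shifted the median of all genes by -0.22 there and by -0.10 in the ageing of SD leaves. Leaving out each library gave 53 to 59 members higher and 2 to 4 lower in the oldest leaves (21% to 24.8% and 21.4% to 26.9% of all genes). At D40 it gave 31 to 40 higher and 6 to 10 lower (27% to 28.4% and 18.3% to 21.4%). In the ageing of SD leaves it gave 14 to 20 higher and 47 to 51 lower (32.4% to 33.2% and 34.4% to 34.9%). Every other setting kept the member counts within 1.5 times. Replicate numbers did not pair the libraries (same-number correlations of deviations 0.15, -0.08 and 0.07 in the oldest leaves). A replicate block gave 62 members higher and 4 lower, 36 and 9, and 18 and 51. The shares of all genes were then 25% and 26.5%, 29.1% and 21.2%, and 34% and 36.5%. Of 924 recomputed values of the 66 named gene results called in the main fit, 855 kept direction and call, 69 lost the call and 0 reversed. Of those 66 results, 22 lost the call under at least 1 setting. The ranking was less stable: 68 of the 100 members remained with log2(value + 10), 57 by the lowest tcx5/6 minus the highest Col-0 LD library, 77 to 81 without 1 replicate number, and 96 with TMM scaling. Depth limits folds against zeros in Col-0 LD D40, the group with the fewest reads, where 3 reads average 4.06 normalised reads.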
